A study of Homo sapiens with 12 samples.

Results

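The antigen-presentation genes of major histocompatibility complex (MHC) class I were followed through PMA-driven differentiation of U937 cells. These 9 genes are HLA-B, HLA-E, B2M, TAP1, TAP2, TAPBP, NLRC5, PSMB8 and PSMB9. The members are all probe sets that the annotation of the HG-U133 Plus 2.0 array pairs with one of these symbols, 20 of the 54675 on the array. HLA-B, HLA-E, B2M and TAPBP have 3 probe sets each, TAP2 has 4, and TAP1, PSMB8, PSMB9 and NLRC5 have 1 each. None of the 20 is paired with a second gene, and all 20 entered the fit, with no filter on dim signals. The 3 probe sets of HLA-B and 2 of the 3 of HLA-E carry the suffix _x_at, which the manufacturer uses where some probes also match related transcripts, so their signal can include other HLA class I transcripts.

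Class I molecules show peptides from inside the cell to CD8 T cells and NK cells. The proteasome, with its cytokine-inducible catalytic subunits PSMB8 and PSMB9, cuts proteins into peptides, and the transporter made of TAP1 and TAP2 carries these into the endoplasmic reticulum. There tapasin, the product of TAPBP, bridges the transporter to a heavy chain such as HLA-B or HLA-E that is paired with the light chain B2M, beta-2 microglobulin. NLRC5 is the transactivator of class I genes, acting through a promoter module that the RFX complex, CREB and ATF proteins and NF-Y bind, while interferons act through STAT and IRF proteins at separate elements.

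U937 is a human monocytic line derived from a histiocytic lymphoma, and PMA is a phorbol ester that activates protein kinase C and drives such cells toward macrophages. Every array came from a U937 derivative with an integrated TRIPZ Tet-On cassette, in which doxycycline switches on a microRNA-type hairpin against ZXDC, grown under puromycin. The 4 groups of 3 arrays were 100 nM PMA with doxycycline, 100 nM PMA without it, vehicle (0.1% DMSO) with doxycycline, and vehicle without it. Doxycycline was dosed daily at 0.5 µg/mL for 4 days, and PMA or DMSO was added after the first 2 days, for 3 days, durations as the labels state them. All groups thus share the hairpin cassette, and no group with another hairpin was analysed here, so an effect of doxycycline itself and one of the hairpin cannot be told apart. The labels call the 3 arrays of a group biological replicates of 1 derived line and name no separate cultures, so p-values measure the spread between these samples.

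The values are log2 RMA signals, with medians between 5.16 and 5.22 over the 12 arrays and highest signals between 14.67 and 14.88. With 3 arrays in each group, precision is limited by their number. Of 6 myeloid markers measured, ITGAM (CD11b), CD14 and CSF1R were called higher with PMA in both doxycycline states. SPI1 (0.30 and 0.36), LYZ (-0.55 and -0.33) and CD4 (-0.13 and -0.12) were not called without or with doxycycline. The summed log2 signal of these 6 was 47.33 to 51.91 with PMA plus doxycycline, 47.04 to 51.41 with PMA, 40.76 to 41.92 with vehicle plus doxycycline and 40.67 to 41.83 with vehicle. Of the markers of other cell types, the NK marker NCAM1 was called higher with PMA in both states and the T cell marker CD3D with doxycycline only, and no B cell, erythroid, epithelial or fibroblast marker was called. Their part in the results below was not tested. The reference genes ACTB and GAPDH were not called with PMA. ZXDC had signals of 7.39, 7.43 and 7.02 with PMA plus doxycycline, 7.96, 7.89 and 7.51 with PMA, 7.16, 7.25 and 7.44 with vehicle plus doxycycline, and 8.01, 7.63 and 7.69 with vehicle. Its doxycycline difference averaged over both agents was -0.50 on the log2 scale (SE 0.11, limma adjusted p = 0.639, unadjusted p = 0.00058). The 3′ minus 5′ log2 signal of the ACTB control probe sets was 1.99 to 2.72 on the 4 arrays numbered 1. On the 8 arrays numbered 2 or 3 it was 0.71 to 1.64. For the GAPDH control probe sets it was 0.17 to 0.25 against 0.12 to 0.25, so GAPDH did not set the arrays numbered 1 apart. Because of the ACTB signal, PMA differences on the arrays numbered 2 and 3 alone are given beside those of all arrays. They are given for the members and for genes where they change a call or move a value by over 1.5 times.

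The promoters of these genes are known for sharing a few short elements, and 6 are shown because their genes moved in different directions with PMA. Windows from 250 bases before to 50 bases after the annotated start site, 300 bases in all, were taken from RefSeq (GRCh38.p14) and matched 7 of the 9 members; the table used here has none for HLA-E and NLRC5. They were searched on both strands for the interferon-stimulated response element (ISRE, GAAANNGAAA), the X2 core (TGACG) that CREB and ATF proteins bind, the Y box (CCAAT) that NF-Y binds, and the gamma-activated site (GAS, TTCNNNGAA). Capitals mark ISRE, X2 core and Y box matches on either strand, and neighbouring ISRE matches may overlap. The windows are HLA-B at chr6:31357130-31357429 (minus strand), TAPBP at chr6:33314029-33314328 (minus strand), B2M at chr15:44711267-44711566 (plus strand), TAP1 at chr6:32853655-32853954 (minus strand), TAP2 at chr6:32838690-32838989 (minus strand) and PSMB8 at chr6:32843998-32844297 (minus strand), each printed 5′ to 3′ on its own strand.
HLA-B: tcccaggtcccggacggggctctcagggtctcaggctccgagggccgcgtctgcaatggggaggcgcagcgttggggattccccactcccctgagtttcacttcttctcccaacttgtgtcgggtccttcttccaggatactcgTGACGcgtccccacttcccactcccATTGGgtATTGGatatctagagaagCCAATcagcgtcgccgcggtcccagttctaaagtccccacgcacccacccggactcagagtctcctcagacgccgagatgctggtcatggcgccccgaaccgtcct
TAPBP: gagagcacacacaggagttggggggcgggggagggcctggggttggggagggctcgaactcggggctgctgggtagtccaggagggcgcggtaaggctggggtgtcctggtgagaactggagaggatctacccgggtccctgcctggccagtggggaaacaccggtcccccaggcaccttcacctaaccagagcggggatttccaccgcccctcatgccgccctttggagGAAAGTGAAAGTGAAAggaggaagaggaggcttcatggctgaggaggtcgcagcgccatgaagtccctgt
B2M: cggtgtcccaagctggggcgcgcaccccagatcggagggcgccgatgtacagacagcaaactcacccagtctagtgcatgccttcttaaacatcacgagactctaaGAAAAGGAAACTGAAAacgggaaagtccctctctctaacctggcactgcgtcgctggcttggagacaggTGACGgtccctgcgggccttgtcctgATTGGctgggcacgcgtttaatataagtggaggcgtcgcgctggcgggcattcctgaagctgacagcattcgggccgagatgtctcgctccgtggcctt
TAP1: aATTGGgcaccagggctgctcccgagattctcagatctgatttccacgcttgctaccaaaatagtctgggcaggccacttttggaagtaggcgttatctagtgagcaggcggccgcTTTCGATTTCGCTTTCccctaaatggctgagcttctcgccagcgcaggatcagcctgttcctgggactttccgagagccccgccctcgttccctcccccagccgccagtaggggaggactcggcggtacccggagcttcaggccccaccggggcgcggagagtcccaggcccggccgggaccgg
TAP2: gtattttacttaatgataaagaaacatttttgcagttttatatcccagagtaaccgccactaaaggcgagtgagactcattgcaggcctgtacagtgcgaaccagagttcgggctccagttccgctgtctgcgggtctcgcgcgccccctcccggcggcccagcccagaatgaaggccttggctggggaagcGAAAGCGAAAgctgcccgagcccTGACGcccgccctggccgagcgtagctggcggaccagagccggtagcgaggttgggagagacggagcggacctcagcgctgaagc
PSMB8: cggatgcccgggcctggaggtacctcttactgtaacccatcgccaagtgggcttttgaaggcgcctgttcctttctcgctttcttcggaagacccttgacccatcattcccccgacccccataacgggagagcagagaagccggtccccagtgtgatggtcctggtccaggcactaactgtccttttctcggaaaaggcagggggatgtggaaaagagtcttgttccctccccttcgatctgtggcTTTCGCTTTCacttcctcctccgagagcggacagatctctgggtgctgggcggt

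HLA-B and B2M, a heavy chain and its partner, hold the X2 core and the Y box near each other. In HLA-B the X2 core lies at -106 to -102 relative to the start site, ahead of 3 Y boxes, and in B2M it lies at -75 to -71, ahead of 1 Y box. TAPBP holds 2 overlapping ISRE matches at -20 to -5, TAP1 holds 2 at -134 to -119, and B2M holds 2 at -144 to -129. TAP2 holds 1 ISRE at -58 to -49 with an X2 core at -35 to -31, and PSMB8 holds 1 ISRE across the start site and a GAS. The second PSMB8 window, at chr6:32844630-32844929, holds an X2 core and no ISRE, and the second TAP1 window, at chr6:32852712-32853011, holds a GAS and none of the other 3. Of all 35116 windows in the table, 3.6% hold an ISRE, 24.6% an X2 core, 34.6% a Y box and 7.7% a GAS. A loose NF-kappaB pattern (GGGNNNNNCC) was found in HLA-B, B2M, TAP1, TAP2 and TAPBP and in 58.7% of all windows. An ISRE was thus found both in genes whose signal was higher with PMA and in genes whose signal was lower, and a match is a description of letters, not of bound factors. TAP2, PSMB8, the antisense gene PSMB8-AS1, TAP1 and PSMB9 are neighbours in this order on chromosome 6. TAP1 and PSMB9 run away from each other with 487 bases between their start sites, so that their windows overlap by 13 bases and share a Y box.

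The class I genes moved in both directions with PMA. Both heavy chains and tapasin rose, the immunoproteasome subunit PSMB8 and 1 probe set of the transporter gene TAP2 fell, and TAP1 and PSMB9 were not called. Without doxycycline, 10 of the 20 probe sets were called higher with PMA and 2 lower at an adjusted p under 0.05, beside 10.4% higher and 13.2% lower among all 54613 probe sets tested. With doxycycline 11 were higher and 3 lower, beside 10.7% and 13.8%. Brighter probe sets were called more often. A fit without dim probe sets, those in the lower 50% of mean signal, kept 18 of the 20. There 11 were higher and 2 lower without doxycycline, beside 5095 higher and 6666 lower of 27306 probe sets (43.1% in either direction). With doxycycline 12 were higher and 4 lower, beside 5218 and 7008 (44.8%). The 2 comparisons use different arrays but share 1 estimate of the spread, and same-numbered arrays with and without doxycycline are correlated. They are thus not independent of each other. All 20 probe sets had the same sign in both, with 10 called higher in both and 2 called lower in both. No share over all probe sets is given for these counts. The median log2 difference over the 20 was 0.57 without and 0.44 with doxycycline, beside 0.02 and 0.00 over all probe sets tested. PMA arrays lay wholly above vehicle arrays for 13 probe sets and wholly below for 3 without doxycycline, beside 17.8% and 18.3% of all probe sets, and for 12 and 6 with doxycycline, beside 17% and 19.3%. In bulk RNA, more cells of a kind and more RNA per cell cannot be told apart.

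**Figure D1:**
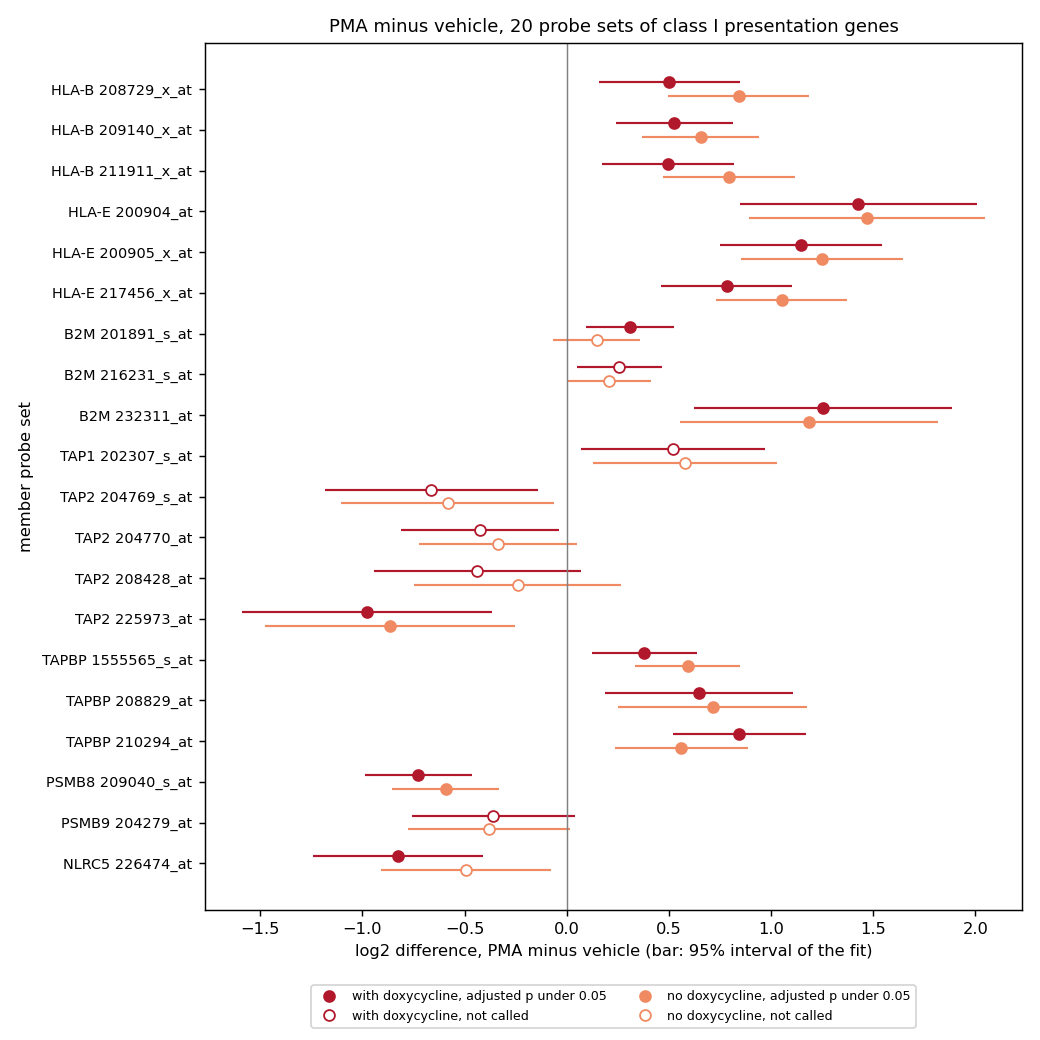
Log2 difference of PMA minus vehicle for each of the 20 probe sets, with doxycycline (red) and without (orange). Points are fitted differences, bars 95% intervals of the fit over 12 arrays, and filled points have an adjusted p under 0.05. HLA-B, HLA-E and TAPBP lie right of 0, TAP2, PSMB8, PSMB9 and NLRC5 lie left of 0, and the B2M probe sets differ in size.

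HLA-E, a non-classical heavy chain that presents signal peptides to NK receptors, had the largest PMA difference among the members. Probe set 200905_x_at had signals of 12.02, 12.05 and 11.88 with PMA plus doxycycline and 11.97, 11.96 and 11.997 with PMA, against 11.12, 10.91 and 10.48 with vehicle plus doxycycline and 11.17, 10.53 and 10.48 with vehicle. The 6 PMA arrays lay close together, between 11.88 and 12.05, and above all 6 vehicle arrays, which were more spread. Its difference was 1.25 (SE 0.18, 2.38-fold, adjusted p = 0.000168) without and 1.14 (SE 0.18, 2.21-fold, adjusted p = 0.000319) with doxycycline. Probe set 200904_at, which does not carry the _x_at suffix, had signals of 10.71, 10.38 and 10.36 with PMA plus doxycycline and 10.68, 10.19 and 10.37 with PMA, against 9.66, 8.76 and 8.74 with vehicle plus doxycycline and 9.52, 8.48 and 8.82 with vehicle. The arrays numbered 1 were the highest of their group in all 4 groups, and the groups still did not overlap. This probe set differed by 1.47 (SE 0.27, 2.77-fold, adjusted p = 0.000952) without and 1.43 (SE 0.27, 2.69-fold, adjusted p = 0.00112) with doxycycline. On the arrays numbered 2 and 3 alone the HLA-E 200904_at differences were 1.62 and 1.62. The third probe set, 217456_x_at, rose 2.07-fold without and 1.72-fold with doxycycline. HLA-E 200905_x_at and 217456_x_at differed on the arrays numbered 2 and 3 alone by 1.47 and 1.25 without and 1.27 and 0.87 with doxycycline. All 3 probe sets kept their calls in every alternative run.

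HLA-B, a classical heavy chain, rose on all 3 of its probe sets in both doxycycline states. Probe set 209140_x_at had signals of 13.00, 13.29 and 13.22 with PMA plus doxycycline and 13.07, 13.26 and 13.25 with PMA, against 12.63, 12.77 and 12.52 with vehicle plus doxycycline and 12.77, 12.33 and 12.52 with vehicle. Its lowest PMA array stood above its highest vehicle array. The differences were 0.66 (SE 0.13, 1.58-fold, adjusted p = 0.0021) without and 0.53 (SE 0.13, 1.44-fold, adjusted p = 0.00913) with doxycycline. The other 2 probe sets rose 1.79- and 1.74-fold without doxycycline and 1.42- and 1.41-fold with it. For HLA-B 208729_x_at, 209140_x_at and 211911_x_at the arrays numbered 2 and 3 alone gave differences of 1.05, 0.83 and 1.00 without and 0.61, 0.60 and 0.58 with doxycycline, all called. The calls of HLA-B 208729_x_at and 211911_x_at with doxycycline were lost without PMA plus doxycycline replicate 2 or 3, or without vehicle plus doxycycline replicate 1 or 3, at differences of 0.39 to 0.48 and adjusted p of 0.0739 to 0.146.

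B2M, the light chain that all class I heavy chains need, gave different sizes on its probe sets. Probe set 216231_s_at had signals of 14.27, 14.44 and 14.36 with PMA plus doxycycline and 14.26, 14.37 and 14.34 with PMA, against 14.11, 14.11 and 14.08 with vehicle plus doxycycline and 14.16, 14.07 and 14.11 with vehicle. The PMA arrays lay above the vehicle arrays, by 0.21 (SE 0.10, adjusted p = 0.156) without and 0.26 (SE 0.10, adjusted p = 0.0685) with doxycycline, neither called. These signals lie near the highest on any array, where a scanner's range can compress differences; how far it did was not tested. Probe set 201891_s_at differed by 0.15 (adjusted p = 0.364) and 0.31 (adjusted p = 0.0357, called higher). Without the arrays numbered 1 the B2M 216231_s_at differences were 0.26 and 0.30, not called, and those of 201891_s_at 0.20 (not called) and 0.39 (called).

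The third B2M probe set, 232311_at, was much dimmer and rose by 1.18 (SE 0.29, 2.27-fold, adjusted p = 0.00826) without and 1.26 (SE 0.29, 2.39-fold, adjusted p = 0.00534) with doxycycline. Its signals were 8.60, 7.79 and 7.58 with PMA plus doxycycline and 8.51, 7.61 and 7.74 with PMA, against 7.26, 6.43 and 6.50 with vehicle plus doxycycline and 7.03, 6.71 and 6.56 with vehicle. Here too the array numbered 1 was the highest of each group, in step with the higher ACTB 3′ minus 5′ signal, whose part was not tested. On the arrays numbered 2 and 3 alone the differences of B2M 232311_at were 1.04 and 1.21, both called. The B2M 201891_s_at call with doxycycline was lost when only the 2 groups were fitted (adjusted p = 0.0884) and without PMA plus doxycycline replicate 2 or 3 or any 1 of the 3 vehicle plus doxycycline arrays (differences of 0.27 to 0.33). The call of 216231_s_at was gained in both states under cyclic loess scaling (0.30 and 0.36) and a trended variance prior, and with doxycycline also with 1 probe set per gene and without dim probe sets.

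**Figure D2:**
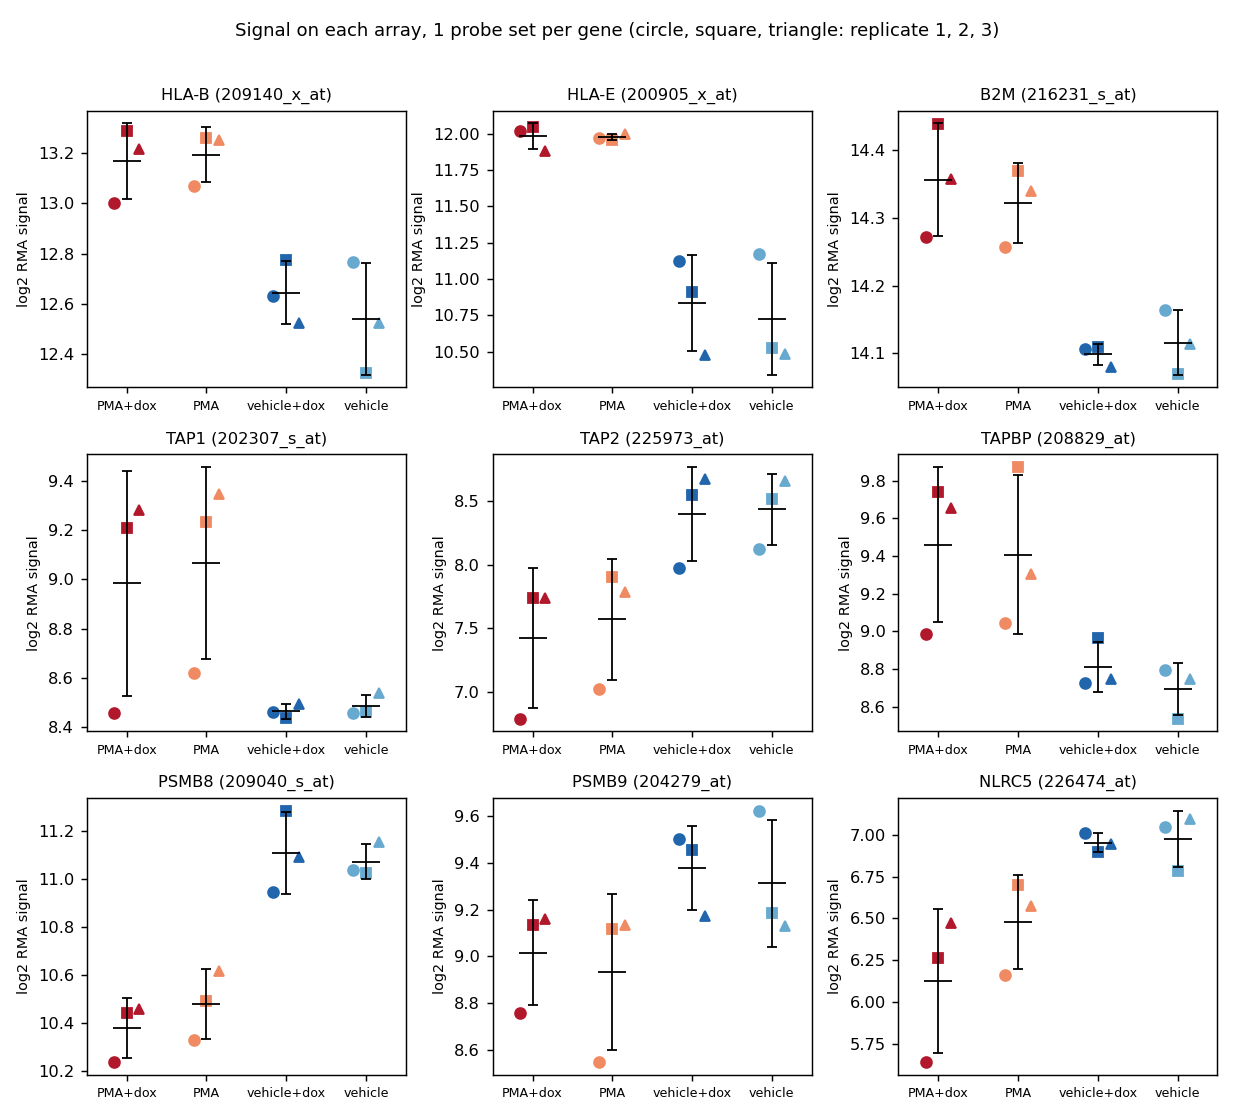
Log2 RMA signal on each of the 12 arrays for the probe set with the highest mean of each gene, in 4 groups of 3 arrays; marks are arrays, with circles, squares and triangles for replicates 1, 2 and 3, and lines show the mean and SD. HLA-E, HLA-B and B2M lie higher and PSMB8 lower on all 6 PMA arrays than on the vehicle arrays, while TAP1 is at or close to the vehicle level on both PMA arrays numbered 1; axes differ between panels and do not start at 0.

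The 2 subunits of the peptide transporter gave signals in opposite directions. TAP1 had signals of 8.46, 9.21 and 9.28 with PMA plus doxycycline and 8.62, 9.23 and 9.35 with PMA, against 8.46, 8.44 and 8.50 with vehicle plus doxycycline and 8.46, 8.46 and 8.54 with vehicle. On 4 PMA arrays TAP1 stood clear of every vehicle array, and on the PMA plus doxycycline array numbered 1 it was within the vehicle range. Its difference, 0.58 (SE 0.21, 1.49-fold, adjusted p = 0.0614) without and 0.52 (SE 0.21, 1.43-fold, adjusted p = 0.0938) with doxycycline, was not called. TAP1 was called higher on the arrays numbered 2 and 3 alone, at 0.79 (adjusted p = 0.000395) and 0.78 (adjusted p = 0.000399). Leaving out PMA replicate 1 gave 0.80 (adjusted p = 0.00792), and leaving out PMA plus doxycycline replicate 1 gave 0.78 (adjusted p = 0.00461). TAP1 was also called in both states under cyclic loess scaling, at 0.68 (adjusted p = 0.0288) and 0.63 (adjusted p = 0.04), and with a replicate block over all groups. Without doxycycline it was called too with 1 probe set per gene, without dim probe sets, with only the 2 groups fitted and without PMA plus doxycycline replicate 1, at the same difference (adjusted p of 0.014 to 0.0471), and with doxycycline without PMA replicate 1 (adjusted p = 0.0428).

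TAP2, the partner of TAP1, lay below 0 on all 4 probe sets. Probe set 225973_at had signals of 6.79, 7.74 and 7.74 with PMA plus doxycycline and 7.03, 7.90 and 7.78 with PMA, against 7.98, 8.55 and 8.67 with vehicle plus doxycycline and 8.12, 8.52 and 8.66 with vehicle. The array numbered 1 was the lowest of each group, and the PMA arrays stayed below the vehicle arrays. The difference was -0.86 (SE 0.28, 0.55-fold, adjusted p = 0.0405) without and -0.98 (SE 0.28, 0.51-fold, adjusted p = 0.0209) with doxycycline. TAP2 225973_at on the arrays numbered 2 and 3 alone gave -0.75 (adjusted p = 0.000732) and -0.87 (adjusted p = 0.000222). Without doxycycline its call was lost under cyclic loess scaling (-0.78, adjusted p = 0.0642) and without PMA replicate 1 or 3, vehicle replicate 2 or 3 or vehicle plus doxycycline replicate 2 (-0.59 to -0.97). With doxycycline the call was lost without PMA plus doxycycline replicate 1, or vehicle plus doxycycline replicate 2 or 3 (-0.66 to -0.90). The other 3 probe sets differed by -0.24 to -0.58 without and -0.42 to -0.66 with doxycycline and were not called. Among them, TAP2 204769_s_at was called lower with doxycycline on the arrays numbered 2 and 3 alone (-0.83, adjusted p = 0.0153), without dim probe sets, and without vehicle plus doxycycline replicate 1 (-0.86) or PMA replicate 1 (-0.66), and without doxycycline once vehicle plus doxycycline replicate 2 was left out (-0.58, adjusted p = 0.036). Leaving out that same array moved its difference with doxycycline to -0.35 (adjusted p = 0.285), and without doxycycline the arrays numbered 2 and 3 alone gave -0.58 (adjusted p = 0.0831). TAP2 204770_at was called lower without doxycycline once PMA replicate 2 was left out (-0.58, adjusted p = 0.00901), and with doxycycline when only the 2 groups were fitted or PMA replicate 1 or 2 was left out (-0.42, adjusted p of 0.0235 to 0.0455). Its difference without doxycycline was -0.13 without PMA replicate 1 and -0.17 on the arrays numbered 2 and 3 alone, where that with doxycycline was -0.48 (adjusted p = 0.0752). TAP2 208428_at, not called on all arrays, was called lower with doxycycline on the arrays numbered 2 and 3 alone (-0.79, adjusted p = 0.0149). Its difference with doxycycline moved to -0.14 without PMA plus doxycycline replicate 3. Without doxycycline it moved to -0.09 on the arrays numbered 2 and 3 alone, -0.05 without PMA replicate 1 and -0.39 without PMA replicate 2.

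TAPBP, which encodes the peptide-loading chaperone tapasin, rose on all 3 probe sets in both doxycycline states. Probe set 208829_at had signals of 8.99, 9.74 and 9.65 with PMA plus doxycycline and 9.04, 9.87 and 9.31 with PMA, against 8.73, 8.97 and 8.75 with vehicle plus doxycycline and 8.80, 8.54 and 8.75 with vehicle. The PMA arrays numbered 1 were the lowest of their groups and still above every vehicle array. The TAPBP 208829_at difference was 0.71 (SE 0.21, 1.64-fold, adjusted p = 0.0255) without and 0.65 (SE 0.21, 1.57-fold, adjusted p = 0.0402) with doxycycline. Probe set 1555565_s_at differed by 0.59 (adjusted p = 0.00197) and 0.38 (adjusted p = 0.0308), and 210294_at by 0.56 (adjusted p = 0.014) and 0.84 (adjusted p = 0.000778). With the arrays numbered 1 left out, TAPBP 208829_at differed by 0.95 and 0.84, 1555565_s_at by 0.76 and 0.43, and 210294_at by 0.54 and 0.89. Single arrays ended some of these calls. Without doxycycline 208829_at was not called without PMA replicate 2 (0.48, adjusted p = 0.126), vehicle replicate 2 (0.63) or vehicle replicate 3 (0.74), and TAPBP 210294_at was not called without PMA replicate 2 (0.41, adjusted p = 0.0722) or on the arrays numbered 2 and 3 alone (0.54, adjusted p = 0.0638). With doxycycline 208829_at was not called in 7 of the 12 fits that left out 1 array (0.51 to 0.72, adjusted p of 0.0504 to 0.163), those without PMA plus doxycycline replicate 2 or 3, any vehicle plus doxycycline array, PMA replicate 3 or vehicle replicate 3. TAPBP 1555565_s_at was not called with doxycycline without any 1 PMA plus doxycycline array or vehicle plus doxycycline replicate 2 or 3 (0.35 to 0.40).

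PSMB8, the inducible beta5i subunit of the immunoproteasome, fell with PMA. Its signals were 10.24, 10.44 and 10.46 with PMA plus doxycycline and 10.33, 10.49 and 10.62 with PMA, against 10.94, 11.28 and 11.09 with vehicle plus doxycycline and 11.04, 11.02 and 11.15 with vehicle. Every PMA array lay below every vehicle array. The difference was -0.59 (SE 0.12, 0.66-fold, adjusted p = 0.00231) without and -0.73 (SE 0.12, 0.60-fold, adjusted p = 0.000454) with doxycycline, and the call was kept in every alternative run. PSMB8 differed by -0.54 and -0.74 on the arrays numbered 2 and 3 alone. The antisense gene PSMB8-AS1 lies beside PSMB8, and the annotation gives this probe set to PSMB8 alone.

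PSMB9, the inducible beta1i subunit encoded next to TAP1, had signals of 8.76, 9.13 and 9.16 with PMA plus doxycycline and 8.55, 9.12 and 9.13 with PMA, against 9.50, 9.46 and 9.17 with vehicle plus doxycycline and 9.62, 9.18 and 9.13 with vehicle. The groups overlapped without doxycycline, and the widest gaps were between the arrays numbered 1. Its difference of -0.38 (SE 0.19, adjusted p = 0.177) without and -0.36 (SE 0.19, adjusted p = 0.201) with doxycycline was not called. On the arrays numbered 2 and 3 alone PSMB9 differed by -0.03 and -0.17, so most of its difference without doxycycline came from the arrays numbered 1. Leaving out PMA replicate 1 gave -0.19, and leaving out vehicle replicate 1 gave -0.22. With doxycycline, leaving out PMA plus doxycycline replicate 1 gave -0.23 and cyclic loess scaling -0.24.

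NLRC5, the class I transactivator, had signals of 5.64, 6.26 and 6.47 with PMA plus doxycycline and 6.16, 6.70 and 6.58 with PMA, against 7.01, 6.90 and 6.95 with vehicle plus doxycycline and 7.05, 6.78 and 7.10 with vehicle. It was lower on all 6 PMA arrays than on the 6 vehicle arrays, and the 2 lowest signals were those of the PMA arrays numbered 1. The difference was -0.49 (SE 0.19, 0.71-fold, adjusted p = 0.085, not called) without and -0.83 (SE 0.19, 0.56-fold, adjusted p = 0.00533) with doxycycline. The 2 differences were not shown to differ, since the interaction had an adjusted p of 1. NLRC5 on the arrays numbered 2 and 3 alone gave -0.30 (adjusted p = 0.164) and -0.55 (adjusted p = 0.0122). Its call without doxycycline was gained without PMA plus doxycycline replicate 1 (-0.49, adjusted p = 0.0219), which changes the shared spread and not the difference.

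Other genes of the pathway were taken from lists and given 1 probe set each. The counts below come from the fit of all 54613 probe sets. They stand beside those of a separate fit of 1 probe set for each of 19775 genes, adjusted over these alone. It called 2518 higher and 3742 lower without doxycycline (31.7% in all), and 2571 and 3855 with it (32.5%). Of 10 other heavy chain and class I-like genes, 7 were called higher and none lower without doxycycline, and 6 higher and none lower with it, with median differences of 0.55 and 0.56. HLA-G, a non-classical heavy chain, rose by 0.75 and 0.62, on an _x_at probe set. HLA-C, HLA-F and HLA-J, named here for their suffix, were also called higher without doxycycline on _x_at probe sets. With doxycycline HLA-F and HLA-J were called and HLA-C was not. These signals can include transcripts of other HLA class I genes, so their calls are not independent of each other or of HLA-B. MR1, which presents vitamin B metabolites to MAIT cells, rose by 1.02 (SE 0.20, adjusted p = 0.00177) without doxycycline and differed by 0.52 with it (adjusted p = 0.0788, not called). The MR1 difference with doxycycline on the arrays numbered 2 and 3 alone was 0.85 and was called, as it was under cyclic loess scaling (0.64) and without PMA plus doxycycline replicate 1 (0.68) or vehicle plus doxycycline replicate 1 (0.69). MICA, a stress-induced ligand of the NK receptor NKG2D, rose by 0.92 (SE 0.17, adjusted p = 0.00106) with doxycycline and differed by 0.39 (adjusted p = 0.13) without it. CD1D, which presents lipids, rose by 0.87 (adjusted p = 0.0283) with doxycycline and differed by 0.66 (adjusted p = 0.0984) without it. Without PMA plus doxycycline replicate 2 or 3 or vehicle plus doxycycline replicate 1 the CD1D call was lost (0.61 to 0.82), and without doxycycline a CD1D call was gained without PMA replicate 1 (0.90, adjusted p = 0.0268), on the arrays numbered 2 and 3 alone (0.81) or with only the 2 groups fitted (adjusted p = 0.0354). On the arrays numbered 2 and 3 alone MICA was called without doxycycline too (0.44, adjusted p = 0.0343).

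Of 6 peptide loading and trimming genes, 2 were called higher without and 3 with doxycycline, none lower. ERAP1, the aminopeptidase that trims peptides in the endoplasmic reticulum, had signals of 9.58, 9.94 and 9.59 with PMA plus doxycycline and 9.64, 9.17 and 9.54 with PMA, against 8.52, 7.64 and 8.05 with vehicle plus doxycycline and 8.41, 8.08 and 8.22 with vehicle. The ERAP1 groups did not overlap, and it rose by 1.21 (SE 0.20, adjusted p = 0.000407) and 1.63 (SE 0.20, adjusted p = 2.91e-05). TAPBPL, a tapasin-related peptide editor, rose by 0.94 (adjusted p = 0.000271) and 0.55 (adjusted p = 0.0126), the call with doxycycline being lost without PMA plus doxycycline replicate 2 (0.46) or 3 (0.49) or vehicle plus doxycycline replicate 3 (0.43). ERAP2, a related aminopeptidase named after its value was seen, was the third called higher with doxycycline, at 0.43 (adjusted p = 0.0407).

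Of 3 other genes measured in a list of inducible proteasome subunits and proteasome activators, only PSME3, the gene of the nuclear activator PA28 gamma, was called. It differed by -0.70 (SE 0.21, adjusted p = 0.028) without and -0.91 (SE 0.21, adjusted p = 0.00521) with doxycycline. The inducible subunit gene PSMB10 and the activator gene PSME1, named to complete the list, were not called in either state. The PSME3 call without doxycycline was lost under cyclic loess scaling (-0.60) and without PMA replicate 1 or 2 or vehicle replicate 2 or 3 (-0.53 to -0.74). None of the 3 constitutive catalytic subunits was called, with median differences of -0.02 and -0.16, and PSMB6, the constitutive beta1 subunit, differed by -0.25 and -0.37. PSMB6 was called lower with doxycycline without dim probe sets (adjusted p = 0.0476) and without PMA replicate 1 (adjusted p = 0.0351). Without doxycycline the PSMB6 difference was -0.11 without PMA replicate 1, -0.12 on the arrays numbered 2 and 3 alone and -0.14 under cyclic loess scaling.

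Of 13 class I regulators measured, 3 were called higher and 5 lower in each doxycycline state. Among the lower were the 3 subunits of the RFX complex, which binds the X box and through which NLRC5 acts. RFXAP had signals of 6.12, 6.44 and 6.40 with PMA plus doxycycline and 7.09, 6.56 and 6.47 with PMA, against 7.94, 7.93 and 8.33 with vehicle plus doxycycline and 8.25, 8.34 and 8.53 with vehicle. RFX5 had signals of 8.75, 8.78 and 8.83 with PMA plus doxycycline and 9.04, 8.89 and 9.16 with PMA, against 10.26, 10.13 and 10.23 with vehicle plus doxycycline and 10.14, 9.97 and 10.17 with vehicle. Neither gene's PMA arrays overlapped its vehicle arrays. RFXAP fell by 1.67 (SE 0.17, adjusted p = 6.43e-06) without and by 1.74 (adjusted p = 3.84e-06) with doxycycline on the log2 scale. RFX5 fell by 1.06 (SE 0.11, adjusted p = 5.65e-06) and by 1.42 (adjusted p = 3.44e-07). The rest of the called regulators were named after their values were seen: RFXANK, the other RFX subunit, fell by 0.57 and 0.58, NFYB, a subunit of NF-Y, by 0.81 and 0.99, and NFKB1, the gene of the NF-kappaB p50 precursor, by 0.40 and 0.45, while IRF1, an activator of class I promoters, rose by 0.53 and 0.49. IRF2, a relative of IRF1 that binds the same element, rose by 0.67 (adjusted p = 0.000927) and 0.51 (adjusted p = 0.00644). CIITA, the class II transactivator, differed by 0.16 and -0.08 and was not called.

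**Figure D3:**
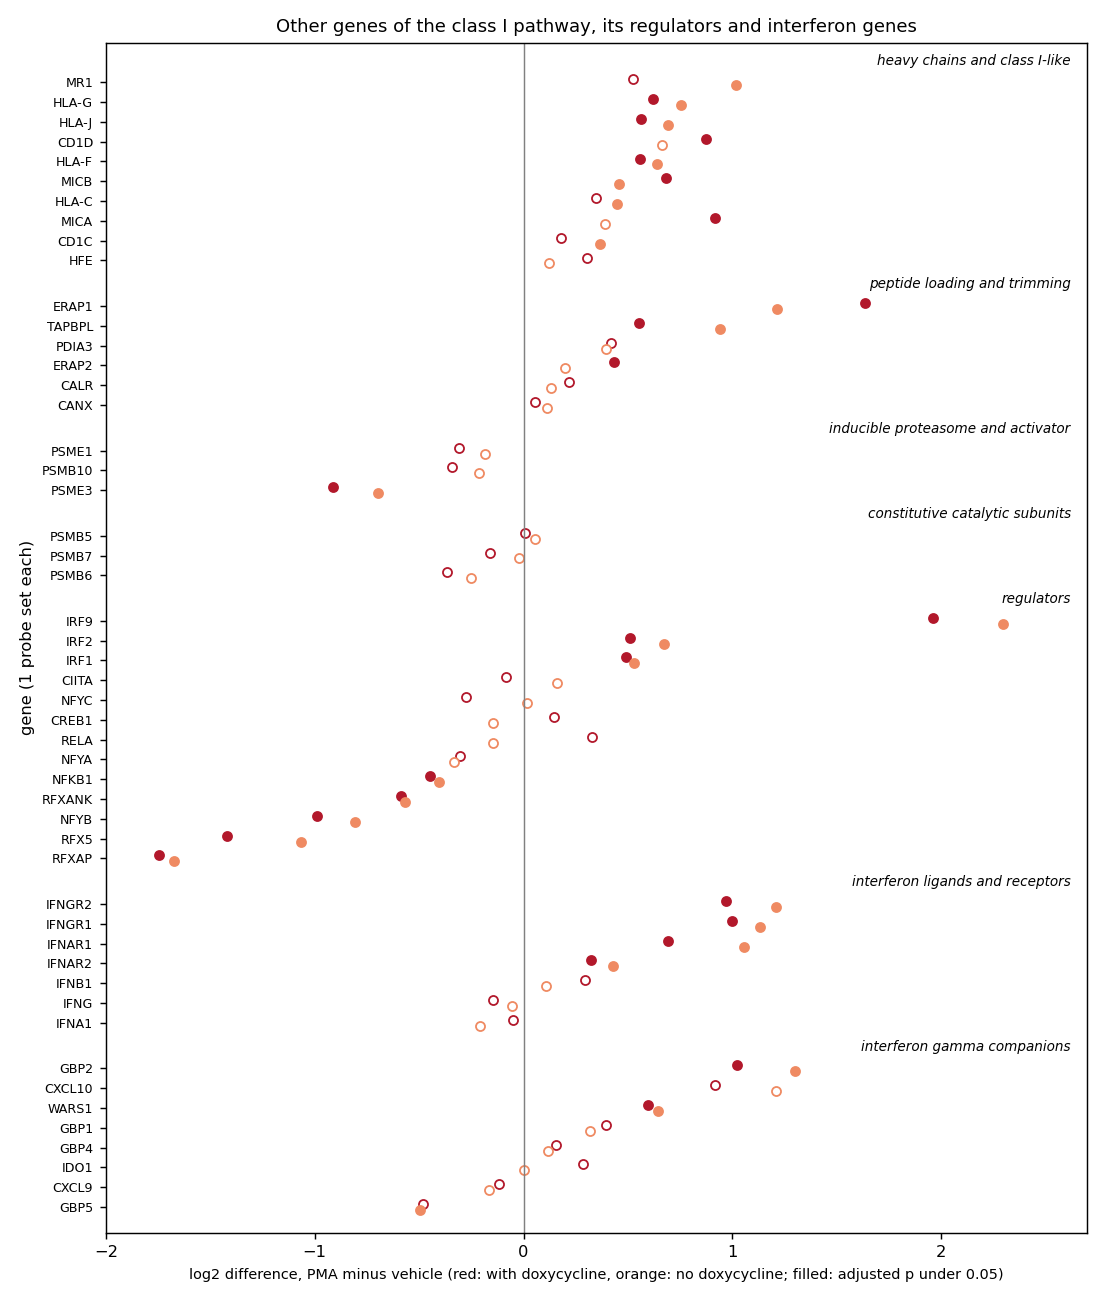
Log2 difference of PMA minus vehicle for the other genes of the pathway, grouped by list, with doxycycline (red) and without (orange); filled points have an adjusted p under 0.05. IRF9 lies farthest right at 2.29 and 1.96, and RFXAP farthest left at -1.67 and -1.74.

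IRF9, the DNA-binding partner of STAT proteins at the ISRE, shared the array pattern of TAP1. Its signals were 7.26, 9.16 and 9.22 with PMA plus doxycycline and 7.51, 9.11 and 9.40 with PMA, against 6.81, 6.36 and 6.58 with vehicle plus doxycycline and 6.68, 6.10 and 6.35 with vehicle. IRF9 was above every vehicle array on all 6 PMA arrays, least so on the 2 numbered 1. It rose by 2.29 (SE 0.50, adjusted p = 0.00325) without and 1.96 (SE 0.50, adjusted p = 0.0089) with doxycycline, and by 3.03 and 2.72 on the arrays numbered 2 and 3 alone.

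Among 9878 genes in the upper 50% of mean signal, those with the highest Pearson correlation to TAP1 over the 12 arrays were IFIT3 (r = 0.992), PARP12 (0.991), ISG15 (0.987), PARP9 (0.986) and MLKL (0.983), given as a description, since the arrays share groups. IFIT3, an interferon-induced protein with tetratricopeptide repeats, had signals of 6.98, 10.38 and 10.37 with PMA plus doxycycline and 7.32, 10.21 and 10.78 with PMA, against 6.07, 6.42 and 6.46 with vehicle plus doxycycline and 6.39, 6.50 and 6.55 with vehicle. ISG15, an interferon-induced ubiquitin-like protein, had signals of 8.91, 11.19 and 11.16 with PMA plus doxycycline and 8.74, 11.35 and 11.59 with PMA, against 8.51, 8.74 and 8.57 with vehicle plus doxycycline and 8.34, 8.66 and 8.69 with vehicle. Both genes were high on the same 4 PMA arrays as TAP1 and much closer to the vehicle level on the PMA arrays numbered 1. With the group means removed, the closest genes were CMPK2 (0.993), NPL (0.992), TRIM22 (0.992), IFIT3 (0.991) and CHI3L1 (0.991). NLRC5 was also higher on those 4 arrays than on the PMA arrays numbered 1, while staying below the vehicle arrays. The cause of the difference between PMA arrays numbered 1 and the others was not tested.

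**Figure D4:**
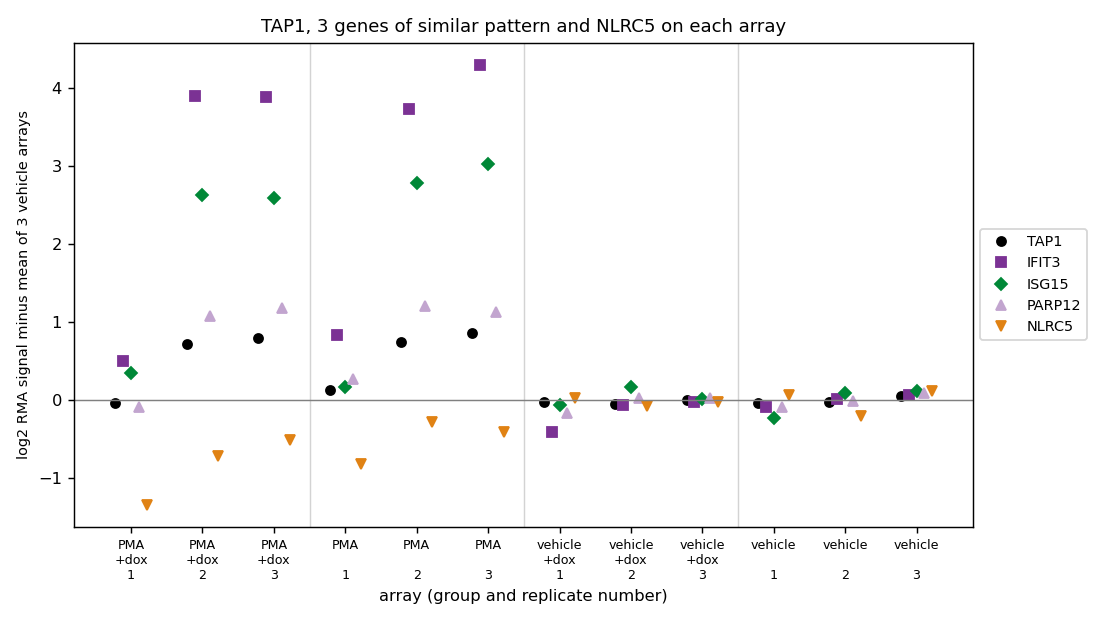
Log2 RMA signal of TAP1, IFIT3, ISG15, PARP12 and NLRC5 on each of the 12 arrays, as the difference from the mean of the 3 vehicle arrays of the same gene. TAP1, IFIT3, ISG15 and PARP12 are raised on the PMA arrays numbered 2 and 3 and near 0 or little raised on those numbered 1, where NLRC5 is lowest.

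Interferon genes themselves were measured as well. All 4 interferon receptor subunits were called higher in both states and none of the 3 ligands was called. The ligand probe sets were dim, with IFNG, IFNB1 and IFNA1 at percentiles 16.7, 28.8 and 4.2 of mean signal. At such levels the lack of a call does not show that their RNA was unchanged. IFNGR1 and IFNGR2, the receptor chains for interferon gamma, rose by 1.13 and 1.21 without doxycycline and by 1.00 and 0.97 with it (largest adjusted p = 0.000474). IFNG itself had group mean signals of 3.19 ± 0.20 with PMA plus doxycycline, 3.27 ± 0.15 with PMA, 3.34 ± 0.13 with vehicle plus doxycycline and 3.32 ± 0.10 with vehicle (SD, n = 3 each), with differences of -0.05 and -0.15. Of 8 other genes that interferon gamma is known to induce with class I, 2 were called higher and 1 lower without doxycycline, and 2 higher and none lower with it. These counts are near the shares over all genes given with the lists, which come from a separate fit. The guanylate-binding protein gene GBP2 rose by 1.30 (SE 0.18, adjusted p = 8.99e-05) and 1.02, and the tryptophanyl-tRNA synthetase gene WARS1 by 0.64 and 0.59. GBP5, a relative of GBP2, fell by 0.50 without doxycycline (adjusted p = 0.046) and differed by -0.48 with it (adjusted p = 0.0513). The GBP5 call without doxycycline was lost under cyclic loess scaling, a trended prior, on the arrays numbered 2 and 3 alone (-0.32, adjusted p = 0.167) and without any 1 PMA or vehicle array other than PMA replicate 3 (-0.36 to -0.53), and without PMA plus doxycycline replicate 3 or vehicle plus doxycycline replicate 3. With doxycycline a GBP5 call was gained with 1 probe set per gene, without dim probe sets and without PMA plus doxycycline replicate 2, vehicle plus doxycycline replicate 2 or PMA replicate 1 or 3 (adjusted p of 0.0247 to 0.0421). On the arrays numbered 2 and 3 alone its difference with doxycycline was -0.25 (adjusted p = 0.295).

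No class I probe set was called for doxycycline in PMA-treated cells, in vehicle-treated cells or averaged over both agents, and none for the interaction with PMA. In the fit of group means 0% of all 54613 probe sets were called in each of these 4 comparisons. By limma in that fit at an unadjusted p under 0.05, 0 of the 20 members passed in any of the 4, beside 5.93% of all probe sets in PMA-treated cells, 2.84% in vehicle-treated cells, 5.9% on average and 2.83% for the interaction. With and without doxycycline the arrays overlapped for all 20 members in both agents, beside 10.2% of all probe sets that did not overlap in PMA-treated and 9.09% in vehicle-treated cells. Differences ranged from -0.35 to 0.26 in PMA-treated cells and from -0.14 to 0.21 in vehicle-treated cells, and the 95% intervals of single probe sets reached from -0.77 to 0.67 and from -0.67 to 0.69. These intervals do not show that smaller changes are absent.

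Since the arrays are paired by number within each agent, the doxycycline differences were also fitted with a block for each pair. No member was called, beside 0.145% of all probe sets in PMA-treated and 0% in vehicle-treated cells, and the lowest adjusted p of a member was 0.255. At an unadjusted p under 0.05, 1 member, NLRC5, passed in PMA-treated cells, beside 11.4% of all probe sets, and 0 in vehicle-treated cells, beside 5.46%. The 3 pairs had the same sign for 12 of the 20 members in PMA-treated cells, beside 30.4% of all probe sets, and for 3 in vehicle-treated cells, beside 29.4%. Among the 12, HLA-B, B2M and TAPBP have 2 probe sets each, which are not independent of each other. In PMA-treated cells the differences in pairs 1, 2 and 3 were -0.52, -0.44 and -0.10 for NLRC5, and 0.27, 0.05 and 0.46 for TAPBP 210294_at. For HLA-B 208729_x_at they were -0.18, -0.02 and -0.24, and for PSMB8 -0.09, -0.05 and -0.16.

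**Figure D5:**
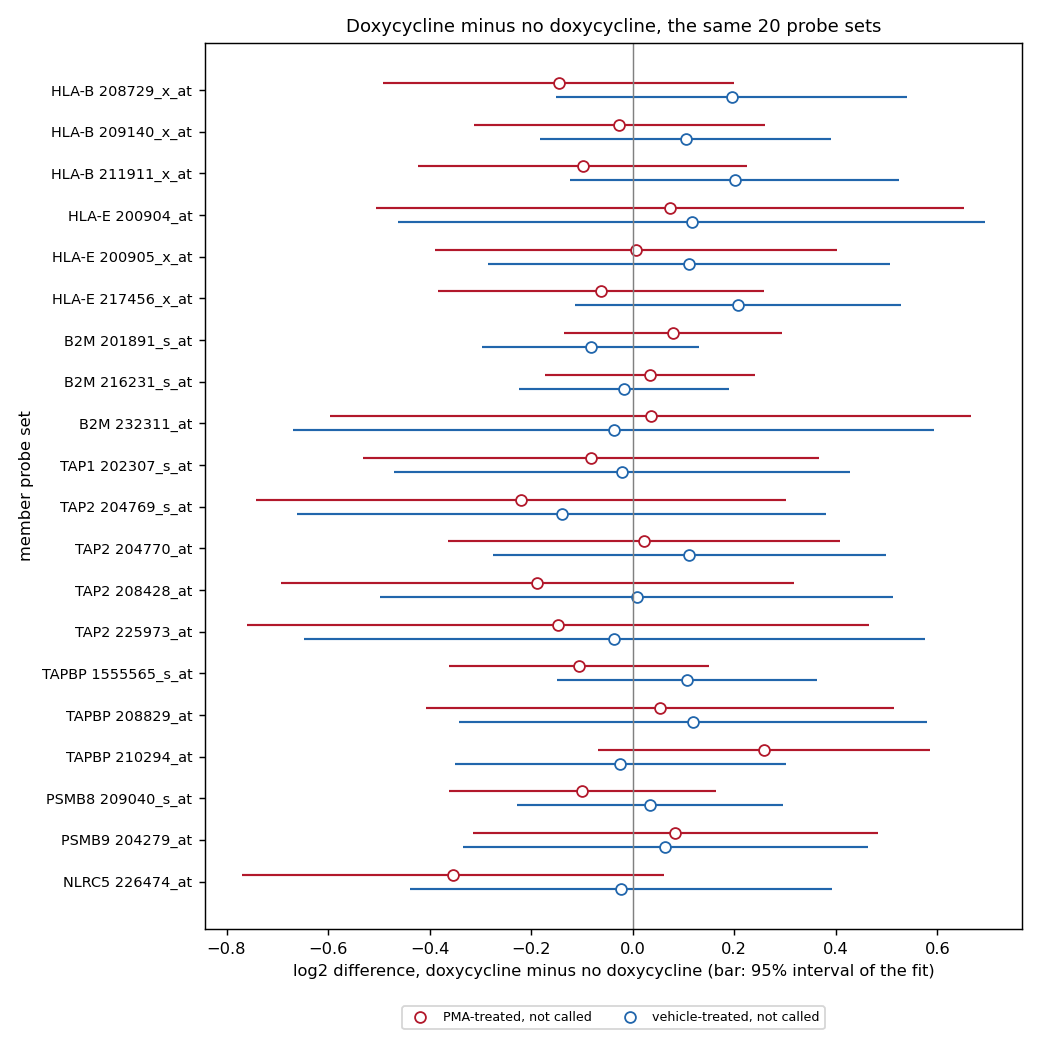
Log2 difference of doxycycline minus no doxycycline for each of the 20 probe sets in PMA-treated (red) and vehicle-treated (blue) cells, with 95% intervals of the fit of group means over 12 arrays, without pairing; open points are not called. All intervals include 0, and NLRC5 in PMA-treated cells lies farthest left at -0.35.

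The largest doxycycline difference was that of NLRC5 in PMA-treated cells, at -0.35 (95% interval -0.77 to 0.06, adjusted p = 0.874). With a block for each pair its interval was -0.60 to -0.10 (unadjusted p = 0.00956, adjusted p = 0.255), so it was lower with doxycycline in 3 of 3 pairs but did not pass the adjustment. The 3 NLRC5 signals with PMA plus doxycycline, given above, overlapped those with PMA, and without PMA plus doxycycline replicate 1 the difference was -0.11. The largest positive one was that of TAPBP 210294_at in PMA-treated cells, at 0.26. HLA-E 200905_x_at differed by 0.01 in PMA-treated and 0.11 in vehicle-treated cells, and TAP1 by -0.08 and -0.02. Interaction estimates, the PMA difference with doxycycline minus that without, ran from -0.34 to 0.28 with intervals between -0.98 and 0.97, and all had an adjusted p of 1. In the pathway lists too, no gene was called in any of the 4 doxycycline comparisons in the fit of group means.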

How the data were processed

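Total RNA from 12 samples was labelled with biotin and hybridised to Affymetrix HG-U133 Plus 2.0 arrays, per the labels' protocols. The authors deposited 1 log2 signal per probe set and array, and the submitters' processing notes name RMA as the method; its version and settings are not given in any source used. The values were used without further scaling. Of 54675 probe sets, 62 controls were left out. Symbols came from the platform annotation, updated through Entrez numbers: 41091 of the 54613 tested probe sets had 1 symbol, 1801 several and 11721 none. For genes outside the 9, the single-gene probe set with the highest mean over 12 arrays was used. Promoter windows came from RefSeq (GRCh38.p14).

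A model of 4 group means was fitted to all 12 arrays in limma 3.58.1 (lmFit, contrasts.fit and eBayes; R 4.3.3). It had 8 residual degrees of freedom and a prior of 5.56. Tests were two-sided, with Benjamini-Hochberg adjustment over all 54613 probe sets and calls at an adjusted p under 0.05. The procedure was tested on simulated data. All adjusted p-values in the text are limma's.

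The members, the lists and the rule for named genes were chosen with earlier results of these data known. All 9 members were named. Each pathway list added up to 2 called genes per direction and comparison by size of difference, or the one with the smallest p, and genes named beyond this are said to be so.

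The labels number the arrays of each group 1 to 3. Deviations from group means correlated between same-numbered arrays with and without doxycycline at 0.56, 0.22 and 0.31 in PMA-treated and 0.53, 0.22 and 0.31 in vehicle-treated cells, all over the limit of 0.1, and pairing by number was accepted there. Between agents the correlations were 0.24, 0.09 and 0.12 with and 0.19, -0.01 and 0.21 without doxycycline, not all over the limit, so no pairing was assumed. Between agents in unlike doxycycline states all were over it. They were 0.16, 0.12 and 0.18 for PMA plus doxycycline with vehicle, and 0.26, 0.23 and 0.15 for PMA with vehicle plus doxycycline. The replicate block over all groups, an alternative given below, allows for numbers shared between agents. Alternatives were 1 probe set per gene, leaving out dim or _x_at probe sets, cyclic loess, a trended prior, fits on the 2 groups compared, replicate blocks, the arrays numbered 2 and 3 alone and leaving out each array.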

Additional observations from a re-analysis of the deposited data

How the results depend on the processing

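No member changed sign under any alternative run in the PMA comparisons. The number of members called without doxycycline, 12 of 20, was 6 of 9 with 1 probe set per gene (beside 31.7% of all probe sets in that fit, against 23.6% in the fit reported) and 7 of 15 without _x_at probe sets, both of which test fewer members. With doxycycline, 14 of 20 became 7 of 9 (beside 32.5%, against 24.5%) and 9 of 15. The counts of 15 come from the fit reported, with its shares of 23.6% and 24.5%. Leaving out 1 array gave 10 to 14 calls without doxycycline, beside 19% to 24.9% of all probe sets. In the comparison with doxycycline it gave 8 to 17, beside 20.2% to 25.8%. The lowest with doxycycline were 8 without vehicle plus doxycycline replicate 3 and 9 without PMA plus doxycycline replicate 2 or 3, where 20.2%, 21.3% and 20.9% of all probe sets were called; the cause was not tested. The replicate block over all groups gave 15 calls without and 17 with doxycycline, beside 27.7% and 28.5% of all probe sets, adding TAP1 (adjusted p = 0.0158 and 0.0281), TAP2 204769_s_at (adjusted p = 0.0157 and 0.00697), NLRC5 without doxycycline (adjusted p = 0.0482) and TAP2 204770_at with it (adjusted p = 0.0383). For doxycycline within agents, where the arrays are paired, the blocked fits left 0 members called, while the block for each pair called 0.145% of all probe sets in PMA-treated cells. No doxycycline comparison called a member under any alternative. Over the single members, 15 of the alternative values gained and 11 lost the call without doxycycline, and 19 gained and 29 lost it with doxycycline. Cyclic loess scaling moved the median difference of all probe sets by less than 0.1. The 3 arrays a group limit the precision, and the fit called PMA differences as small as 0.31 (B2M 201891_s_at) among the members.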
